A study of Mus musculus with 14 samples.

Results

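Granule cell migration was followed through 10 genes: Cxcr4, Bdnf, Ntrk2, Reln, Dab1, Dcx, Pafah1b1, Astn1, Cntn2 and Apbb1ip. Every non-control probe set whose array annotation gave one of these symbols alone was taken. This found 11 probe sets for 9 of the genes, among 12422 probe sets for 8251 genes named on the array; Cntn2, a neural adhesion molecule of premigratory granule cells, had none under this rule and was not analysed here. RNA came from dissociated cerebellum of mice heterozygous for patched (patched+/-), the receptor that restrains hedgehog signalling, at 3 stages with 1 expression array per sample. Granule cell precursors (GCP, n = 4) were from mice aged 7 days, preneoplastic cells (pretumor, n = 5) from 6-week-old mice, and the tumor group (n = 5) was taken between 10 and 25 weeks from animals with signs of medulloblastoma, a tumor of the cerebellum. All groups carry the same labelled mutation and none is wild type, and no treatment is named. The labels also describe a line that carries Math1-GFP, a reporter transgene named for the granule precursor factor Math1, but name patched mice alone as the source of the 3 groups. The cells were those from the border of the 35% and 65% Percoll steps and were not sorted by flow cytometry, so other cerebellar cells could be present. Age and stage differ together and cannot be told apart.

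Granule cells are born in the outer layer of the young cerebellum, divide there, and then move inward along the fibres of Bergmann glia to reach their final layer. Cxcr4, the receptor for the chemokine Cxcl12 of the meninges, holds dividing precursors in the outer layer, and Bdnf with its receptor Ntrk2 (TrkB) draws granule cells inward. Reln, which encodes the secreted glycoprotein reelin, is made by granule cells and signals through the adaptor Dab1 in neighbouring neurons. Dcx (doublecortin) binds microtubules in migrating neurons, Pafah1b1 (Lis1) regulates the dynein motor that pulls the nucleus forward, and Astn1 (astrotactin) joins the neuron to the glial fibre. Apbb1ip (RIAM) links the small GTPase Rap1 to talin and so to integrin adhesion.

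Among these genes Apbb1ip fell most, from a clear signal in GCP samples to intensities of 7.45 to 11.6 in pretumor and tumor samples, where the array medians were 4.12 to 4.39. Pafah1b1 was 1.47-fold lower in tumor than in GCP samples and passed the test there, but in only 11 of 23 alternative ways of running it. Dcx and Reln were between 1.47-fold and 1.77-fold lower in the later groups and did not pass, though Dcx in tumor samples passed in 6 of the 23 alternatives. Cxcr4 did not pass in any comparison, and its tumor samples ranged 13.1-fold from lowest to highest. Bdnf, Ntrk2, Dab1 and Astn1 gave signals so low in all 3 groups that a change in these genes was not measurable with confidence. No probe set of the 10 genes was higher in a later group by the test.

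Values are log2 intensities. Intensities below 16 (4 on the log2 scale) form a band of weak signals, called the low band here, and 70.5% of all values lay there. Of the 11 probe sets, 5 had a group mean at or above 16 (Cxcr4 102794_at, Reln 96591_at, Dcx 102307_at, Pafah1b1 100560_at and Apbb1ip 102710_at), and the other 6 lay in the low band in all groups. Over the whole array 30.8% of probe sets had a group mean at or above 16. A difference was called where its adjusted p was under 0.05, with limma (a linear model per probe set with a spread estimate shared across probe sets) and Benjamini-Hochberg adjustment over all 12422 probe sets. In pretumor against GCP 1 of the 11 was called, lower, where 4.36% of all probe sets were called in either direction and 2.69% were called lower. An unadjusted p under 0.05 was reached by 5 of the 11, all lower, against 15.4% of all probe sets in either direction and 8.98% lower. Groups did not overlap for 4 of the 11, all lower, against 10.1% of all in either direction and 5.48% lower. In tumor against GCP 2 of the 11 were called, both lower, where 4.6% of all were called in either direction and 3.19% lower. Here too 5 of the 11 had an unadjusted p under 0.05, all lower, against 15.4% in either direction and 8.69% lower. Groups did not overlap for 4, all lower, against 8.0% in either direction and 4.73% lower. In tumor against pretumor limma called 0 of the 11, where 0.998% of all were called, and 0 of the 11 had an unadjusted p under 0.05, against 11.3% of all. The median difference of the 11 was -0.17, -0.08 and 0.03 in these comparisons, against -0.01, 0.00 and 0.01 over all probe sets. The GCP samples serve in both of the first comparisons, so those are not separate evidence. Apbb1ip is in each of these counts against GCP and was put on the list with its fall already known. Astn1, in the low band, is among the unadjusted and the non-overlapping counts in both. The counts therefore describe the list and are no independent evidence about it.

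The arrays were alike in median intensity, at 4.12 to 4.39, but these medians lie in the low band and describe weak signals. The share of probe sets at or above 16 ran from 29.2% to 29.8% over the arrays. Within its group each array correlated at 0.985 to 0.996 on average with the others. Among GCP arrays r was 0.9977 for samples 1 and 2 and 0.9975 for samples 3 and 4, but 0.9939 to 0.9956 for the other combinations. For the members and the genes listed as working with them, calls that ended with each of these pairs averaged are said so beside the gene. For cell type markers and for other genes closest in pattern to a member, that check is not given. Over all probe sets, calls against GCP fell from 541 to 168 in pretumor and from 571 to 198 in tumor samples with the pairs averaged. The labels do not say whether each sample was a separate animal, so the spread behind the p-values may be partly technical. Zic1, a factor of the granule lineage, was high throughout, with means of 12.74 ± 0.11 (GCP), 12.59 ± 0.16 (pretumor) and 12.64 ± 0.21 (tumor). The proliferation gene Mki67 was at 10.51 ± 0.17, 10.36 ± 0.32 and 10.47 ± 0.65. Of 5 markers of dividing cells measured, limma called 1, Cdk1, lower in pretumor against GCP (-0.29, adjusted p = 0.0473), and 0 in tumor against GCP. Atoh1 (Math1), the defining factor of these precursors, lay in the low band in all groups (1.95 ± 0.10 in GCP samples), so its probe set does not check the label. Ptch1 itself was at 7.37 ± 0.12, 7.53 ± 0.32 and 7.79 ± 0.56 by probe set 104030_at and passed in no comparison (adjusted p = 0.884, 0.501 and 0.745). Its other probe set, 104031_at, lay in the low band at 2.03 ± 0.11, 2.00 ± 0.12 and 2.07 ± 0.09, so the pair disagreed on whether Ptch1 RNA was detected.

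**Figure D1:**
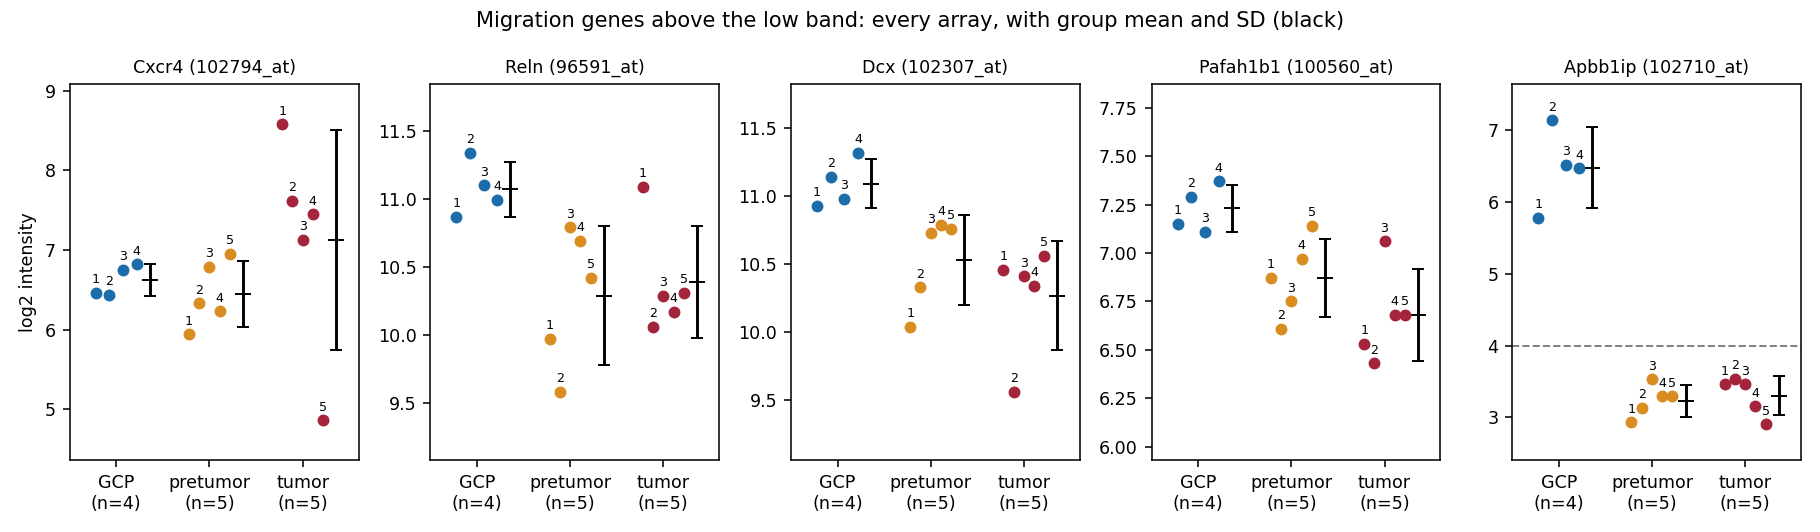
Log2 intensity (y axis, a separate scale for each gene) of the 5 probe sets with a group mean at or above 16 on each of the 14 arrays, by group on the x axis. Points carry the sample number, and black bars are the group mean and SD. The 4 GCP samples of Apbb1ip, at 5.78 to 7.14, lie above the dashed limit of 4 and all later samples lie below it, while the 5 tumor samples of Cxcr4 spread from 4.86 to 8.58.

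The promoters are shown of the 4 genes above the low band whose means were lower in both later groups, since these are the members that lay lower together. Each is the stretch from 250 bases before to 50 bases after the annotated start, on the gene's own strand, 5′ to 3′, from RefSeq on the assembly GRCm38.p6. All 10 genes had an entry. Where a gene had more than 1 start (Dcx has 2 entries), the one furthest upstream was used. The windows are chr2:22774077-22774376 (plus strand) for Apbb1ip, chr11:74723809-74724108 (minus strand) for Pafah1b1, chrX:143933170-143933469 (minus strand) for Dcx and chr5:22344656-22344955 (minus strand) for Reln. Capitals mark every match, on either strand, to the E-box forms CAGCTG and CAGATG bound by factors such as Atoh1 and Neurod1, the TATA form TATAAA, the GC box GGGCGG, and the Gli motif GACCACCCA.
Apbb1ip: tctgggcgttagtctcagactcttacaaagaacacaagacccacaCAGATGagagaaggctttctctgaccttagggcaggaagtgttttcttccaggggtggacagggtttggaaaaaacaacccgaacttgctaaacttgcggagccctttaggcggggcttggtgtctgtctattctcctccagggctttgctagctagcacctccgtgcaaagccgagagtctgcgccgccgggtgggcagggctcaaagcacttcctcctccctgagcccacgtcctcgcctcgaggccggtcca
Pafah1b1: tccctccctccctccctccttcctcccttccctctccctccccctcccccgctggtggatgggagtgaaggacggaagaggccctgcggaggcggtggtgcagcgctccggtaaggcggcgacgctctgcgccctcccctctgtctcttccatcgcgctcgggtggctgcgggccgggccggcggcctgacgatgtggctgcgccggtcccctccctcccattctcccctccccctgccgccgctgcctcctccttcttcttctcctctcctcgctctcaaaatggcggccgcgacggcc
Dcx: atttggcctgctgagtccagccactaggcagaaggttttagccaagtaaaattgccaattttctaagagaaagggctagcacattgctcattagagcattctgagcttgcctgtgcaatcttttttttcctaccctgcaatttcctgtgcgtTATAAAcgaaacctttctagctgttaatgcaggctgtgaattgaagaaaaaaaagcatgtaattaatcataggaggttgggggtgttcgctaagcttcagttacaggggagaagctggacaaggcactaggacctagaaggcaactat
Reln: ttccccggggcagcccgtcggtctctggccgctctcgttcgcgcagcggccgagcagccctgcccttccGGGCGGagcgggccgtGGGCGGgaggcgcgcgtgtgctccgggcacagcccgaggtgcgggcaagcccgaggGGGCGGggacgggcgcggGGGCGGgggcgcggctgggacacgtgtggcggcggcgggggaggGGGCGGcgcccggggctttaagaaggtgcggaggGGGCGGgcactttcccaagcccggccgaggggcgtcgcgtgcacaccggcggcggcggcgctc

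Apbb1ip held 1 CAGATG on its own strand, 205 bases before the start, a motif found in 17.2% of the 32851 promoter windows. Dcx held 1 TATAAA on its own strand, 98 bases before the start; 13.6% of windows hold that motif. Reln held 6 GGGCGG boxes, the furthest 181 and the nearest 13 bases before the start, where 35.7% of windows hold at least 1. Pafah1b1 matched 0 of the 5 motifs. CAGCTG, in 16.3% of all windows, and GACCACCCA, in 0.253%, were in 0 of the 4 windows. CpG dinucleotides numbered 47 in Reln, 27 in Pafah1b1, 13 in Apbb1ip and 3 in Dcx, against a median of 7 over all windows. No motif of the 5 was found in more than 1 of the 4 windows. These matches describe the letters in the windows and were not measured as binding.

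Cxcr4, the chemokine receptor, was at 6.46, 6.44, 6.75 and 6.82 in GCP samples 1 to 4. It was at 5.94, 6.33, 6.79, 6.23 and 6.95 in pretumor samples 1 to 5, and at 8.58, 7.62, 7.13, 7.45 and 4.86 in tumor samples 1 to 5. GCP and pretumor samples overlapped. Of the tumor samples, 4 lay above every GCP and every pretumor sample, and tumor 5 lay below them all. Group means were 6.62 ± 0.20 (SD, n = 4), 6.45 ± 0.41 (n = 5) and 7.13 ± 1.38 (n = 5). The order of the means was tumor, GCP, pretumor, and no neighbours in it differed beyond their spread. Pretumor minus GCP was -0.17 (95% interval -1.40 to 1.06; adjusted p = 0.978), tumor minus GCP 0.51 (-0.72 to 1.74; adjusted p = 0.802) and tumor minus pretumor 0.68 (-0.48 to 1.84; adjusted p = 0.705). The interval for pretumor against GCP holds differences of more than 1 log2 unit in either direction. It uses a spread shared by all 3 groups, so the wide tumor spread widens it beyond that of the GCP and pretumor samples themselves. With these groups fitted alone the difference was again -0.17 and did not pass (adjusted p = 0.796). The SD of Cxcr4 in tumor samples was above that of 98.8% of 2996 genes with a mean at or above 4 on the log2 scale, where the median SD was 0.30. In GCP samples its SD stood above that of 51.4% of these genes. Without tumor 5, tumor minus GCP was 1.08 and tumor minus pretumor 1.25, and neither passed (adjusted p = 0.0779 and 0.0905).

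Cxcl12, the ligand of Cxcr4, is named for that role and lies outside the rule for named genes. It was at 7.98, 8.26, 9.14 and 8.92 in GCP samples, 6.39, 6.38, 7.32, 6.77 and 6.59 in pretumor samples, and 6.30, 7.31, 9.05, 6.34 and 6.28 in tumor samples. All pretumor samples lay below all GCP samples, and tumor 3 alone of the tumor samples lay within the GCP range. The means were 8.57 ± 0.54, 6.69 ± 0.39 and 7.05 ± 1.20. Neither difference from GCP passed (-1.89, adjusted p = 0.0702 in pretumor; -1.52, adjusted p = 0.151 in tumor). The pretumor difference passed in 4 of 23 alternatives (with median centring, adjusted p = 0.0432; the filter on low values, 0.0225; the compared groups alone, 0.0118; and without tumor 3), and the tumor difference in 1, without tumor 3. Without tumor 3 both passed (adjusted p = 0.00558 and 0.00466), and in tumor against GCP the difference was then -2.02. Tumor 3, the high sample for the ligand, was below tumor 1, 2 and 4 for the receptor, and tumor 5 had both the lowest Cxcr4 and the lowest Cxcl12. Ackr3, the other Cxcl12 receptor and likewise named for its role, lay in the low band in all groups. Of 8 measured genes of the list of chemokine and G protein signalling, limma called 0 in each of the 3 comparisons. Gnai2, an inhibitory G protein subunit and the highest of them, was at 11.15 ± 0.24, 10.90 ± 0.21 and 11.05 ± 0.35.

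Bdnf, the neurotrophin ligand (102727_at), was at 1.95, 1.79, 1.98 and 1.92 in GCP samples, 1.76, 1.75, 2.16, 1.88 and 2.35 in pretumor samples, and 2.25, 2.97, 1.75, 1.64 and 1.84 in tumor samples. Its receptor Ntrk2 (99069_at) ranged from 1.42 to 1.77 over all 14 arrays. The groups overlapped for both genes. All these values lie in the low band, where a level cannot be told from background, so no fold is given. The differences of Bdnf from GCP were 0.07 in pretumor and 0.18 in tumor samples (adjusted p = 0.983 and 0.867), and those of Ntrk2 were -0.02 and 0.06 (adjusted p = 0.988 and 0.781). The highest Bdnf value, 2.97 in tumor 2, came from the array that also gave the highest Ntrk2 value, 1.77. The neurotrophin list had 3 measured genes of 10 listed, all in the low band, and limma called 0 of them in each comparison. Ntrk3 (TrkC), the receptor for neurotrophin 3, was the highest of them, at 2.30 ± 0.10, 2.83 ± 0.18 and 3.07 ± 0.61.

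Reln (96591_at) was at 10.87, 11.34, 11.10 and 10.99 in GCP samples. In pretumor samples it was at 9.97, 9.58, 10.79, 10.69 and 10.42, and in tumor samples at 11.09, 10.06, 10.29, 10.17 and 10.31. All pretumor samples lay below all GCP samples, and so did 4 of the 5 tumor samples; tumor 1 lay inside the GCP range. The means were 11.07 ± 0.20, 10.29 ± 0.51 and 10.39 ± 0.41, in the order GCP, tumor, pretumor, and the later groups did not differ beyond their spread (0.10, 95% interval -0.44 to 0.64; adjusted p = 0.945). Pretumor minus GCP was -0.79 (-1.36 to -0.21; adjusted p = 0.138), a 1.72-fold lower mean. Tumor minus GCP was -0.69 (-1.26 to -0.11; adjusted p = 0.209). The unadjusted p was 0.0115 and 0.0228, so the intervals leave out 0 while the adjustment over all probe sets leaves both without a call. The second Reln probe set, 161231_r_at, read 1.47 to 1.69 on every array, in the low band. The pair of Reln probe sets thus disagreed on whether reelin RNA was detected, and its difference from GCP rests on 96591_at alone.

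Dab1, the adaptor that receives the reelin signal, was in the low band by both probe sets. 102972_s_at ranged from 1.39 to 1.69, and 161291_at from the floor of 1.30 to 1.41, with 9 of 14 arrays at the floor. The groups overlapped in every comparison for both. The largest difference was -0.11 in pretumor against GCP for 102972_s_at (adjusted p = 0.534). Of the reelin pathway list, 8 of 10 genes were measured, 5 of them in the low band, and limma called 0 in each comparison. Vldlr, a reelin receptor named outside the rule for that role, was in the low band at 1.49 ± 0.04, 1.47 ± 0.11 and 1.48 ± 0.09. Fyn, the kinase that phosphorylates Dab1 and the highest of the list, was at 9.26 ± 0.21, 8.82 ± 0.23 and 8.81 ± 0.24. Its differences from GCP were -0.43 and -0.45 (adjusted p = 0.151 and 0.132).

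**Figure D2:**
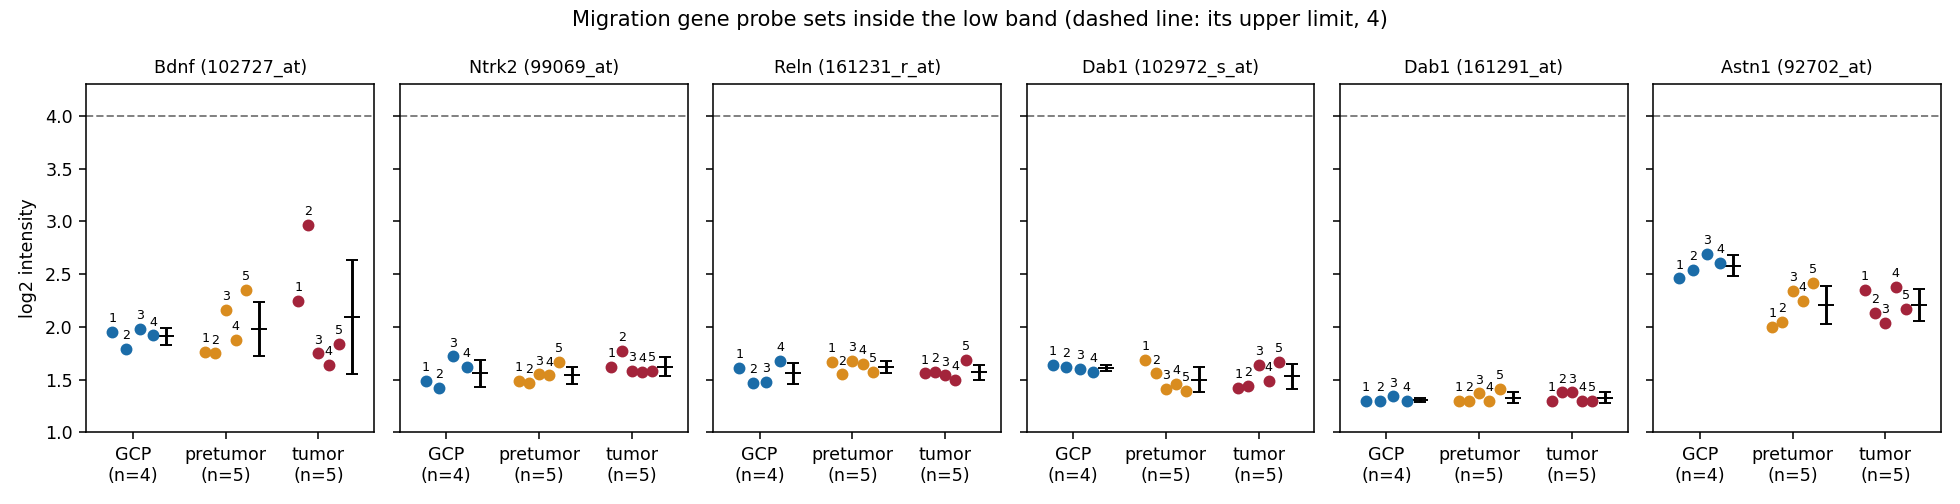
Log2 intensity (y axis) of the 6 probe sets that lay in the low band in all groups, on each of the 14 arrays by group; the dashed line at 4 is the upper limit of that band. Points carry the sample number and black bars are the group mean and SD. All 84 values lie between 1.30 and 2.97, and the GCP samples of Astn1 lie above all later samples by a small margin.

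Dcx (102307_at), the microtubule-binding protein of migrating neurons, was at 10.93, 11.14, 10.98 and 11.32 in GCP samples. It was at 10.04, 10.33, 10.73, 10.79 and 10.76 in pretumor samples, and at 10.46, 9.56, 10.41, 10.34 and 10.56 in tumor samples. All 10 later samples lay below all 4 GCP samples, and the later groups overlapped each other. The means were 11.09 ± 0.18, 10.53 ± 0.33 and 10.27 ± 0.40. Tumor minus GCP was -0.82 (95% interval -1.29 to -0.36), a 1.77-fold lower mean, which lay just outside the threshold (adjusted p = 0.0509). This call is a matter of setting: it passed in 6 of 23 alternatives, with adjusted p from 0.0187 to 0.289 over them. With quantile normalization the adjusted p was 0.0432, with arrays centred on the median 0.0187, and without pretumor 1 or tumor 5 it was 0.0366 and 0.0499. Pretumor minus GCP was -0.56 (-1.02 to -0.09; adjusted p = 0.207), and tumor minus pretumor -0.26 (-0.70 to 0.17; adjusted p = 0.697).

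Of the list of microtubule partners of doublecortin, 7 of 10 genes were measured and Stmn1, which encodes the tubulin-binding protein stathmin, was called in each comparison. Its means were 13.63 ± 0.03 (GCP), 13.48 ± 0.03 (pretumor) and 13.26 ± 0.08 (tumor). The groups did not overlap: GCP samples ran from 13.59 to 13.66, pretumor from 13.44 to 13.53 and tumor from 13.15 to 13.36. The steps are small next to those of Apbb1ip. Stmn1 fell 1.29-fold in tumor against GCP (adjusted p = 0.000102), a call kept in all 23 alternatives, 1.11-fold in pretumor against GCP (adjusted p = 0.0373) and 1.17-fold in tumor against pretumor (adjusted p = 0.0075). The call in pretumor against GCP ended without any 1 of GCP 1 to GCP 4 or pretumor 1, 2, 4 and 5 (adjusted p up to 0.114) and with the GCP pairs averaged (adjusted p = 0.248), and that in tumor against pretumor ended with arrays centred on the median, among others. Tuba1a, the main neuronal alpha tubulin, was at 15.27 ± 0.05, 15.10 ± 0.13 and 15.07 ± 0.15 and was not called; it is named outside the rule, as the tubulin of the list with the highest level.

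Pafah1b1 (100560_at), the dynein regulator Lis1, was at 7.15, 7.29, 7.11 and 7.37 in GCP samples, 6.87, 6.61, 6.75, 6.97 and 7.14 in pretumor samples, and 6.53, 6.43, 7.06, 6.68 and 6.68 in tumor samples. All tumor samples lay below all GCP samples, tumor 3 narrowly; in the pretumor group, pretumor 5 reached the GCP range. The means were 7.23 ± 0.12, 6.87 ± 0.20 and 6.68 ± 0.24. Pafah1b1 fell 1.47-fold in tumor against GCP (-0.55, 95% interval -0.83 to -0.27; adjusted p = 0.0322). In pretumor against GCP the difference was -0.36 (-0.65 to -0.08; adjusted p = 0.17), and between the later groups -0.19 (-0.46 to 0.08; adjusted p = 0.631). Whether the fall in tumor exceeds that in pretumor samples is the last of these tests, which did not pass. The tumor call ended without any 1 of GCP 1 to GCP 4 or tumor 1, 2, 4 and 5 (adjusted p = 0.0563 to 0.11), with a floor at 16 (adjusted p = 0.0734), with the GCP pairs averaged (adjusted p = 0.204) and with GCP and tumor fitted alone (adjusted p = 0.0723). Its difference stayed between -0.65 and -0.49 over 23 alternatives.

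In the list of the dynein and Lis1 complex, 13 of 15 genes were measured and 11 lay above the low band. limma called 0 in pretumor against GCP, 1 in tumor against GCP and 0 in tumor against pretumor. The called gene was Dctn2, the dynactin subunit dynamitin, which fell 1.34-fold from 9.46 ± 0.15 to 9.03 ± 0.19 (adjusted p = 0.025), with pretumor samples between at 9.19 ± 0.07. That call ended without any 1 of GCP 2, GCP 3, GCP 4 or tumor 1, 2, 4 and 5, and with the GCP pairs averaged (adjusted p = 0.115). The direct Lis1 partners Nde1 and Ndel1, given outside the rule for that role, did not pass. Nde1 was at 9.26 ± 0.21, 9.01 ± 0.17 and 8.93 ± 0.29, and Ndel1 at 8.10 ± 0.19, 8.42 ± 0.33 and 8.39 ± 0.42. The median difference of the list was -0.05 in pretumor and -0.12 in tumor against GCP, beside -0.01 and 0.00 over all genes.

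The 3 genes closest to Pafah1b1 in pattern, by the root mean square difference over the 14 arrays after each gene was centred on its own mean, were Atp6v0d1 (0.14), Copz1 (0.16) and Rab11b (0.16), where the median over 3031 genes was 0.40. Atp6v0d1, a subunit of the vacuolar proton pump, was at 10.69 ± 0.09, 10.38 ± 0.19 and 10.23 ± 0.17. Copz1, a coatomer subunit, was at 6.35 ± 0.07, 6.14 ± 0.17 and 6.00 ± 0.19, and Rab11b, a GTPase of recycling endosomes, at 7.35 ± 0.19, 7.23 ± 0.18 and 7.02 ± 0.18. The mean of each of the 3 was highest in GCP and lowest in tumor samples. Of them Atp6v0d1 was called, in tumor against GCP (adjusted p = 0.0287). All 3 were chosen for closeness to Pafah1b1 on these same arrays, so neither that order nor the call is separate evidence.

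Astn1 (92702_at), the neuron-glia adhesion protein, was at 2.46, 2.54, 2.69 and 2.61 in GCP samples. It was at 2.00, 2.05, 2.34, 2.25 and 2.42 in pretumor samples, and at 2.35, 2.13, 2.04, 2.38 and 2.17 in tumor samples. All 10 later samples lay below all GCP samples, but every value is in the low band and the means were 2.58 ± 0.10, 2.21 ± 0.18 and 2.21 ± 0.15. Both differences from GCP were -0.36 (95% interval -0.58 to -0.15), with adjusted p = 0.0631 in pretumor and 0.0609 in tumor samples. In pretumor against GCP Astn1 passed with arrays centred on the median and without pretumor 5 (adjusted p = 0.0379 and 0.0382). In tumor against GCP it passed in 4 alternatives, with adjusted p from 0.0164 to 0.0495 among them. A signal this low cannot be read as a level of astrotactin RNA.

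Of the list of neural adhesion molecules, 10 of 12 genes were measured. In pretumor against GCP 1 rose and 2 fell, in tumor against GCP 0 rose and 2 fell, and in tumor against pretumor limma called 0. Cntn1, which encodes contactin 1, an adhesion protein of the same family as Cntn2, was at 6.33, 6.63, 7.49 and 7.32 in GCP samples, 5.07, 4.09, 6.33, 5.21 and 4.95 in pretumor samples, and 4.70, 4.73, 5.04, 4.18 and 3.42 in tumor samples. Tumor samples lay below all GCP samples, and the highest pretumor sample, pretumor 3, was level with the lowest GCP sample. Cntn1 fell 5.77-fold in tumor against GCP (adjusted p = 0.00628) and 3.52-fold in pretumor against GCP (adjusted p = 0.0381). The tumor call was kept in 22 of 23 alternatives and ended with the GCP pairs averaged (adjusted p = 0.0666), while the pretumor call was kept in 11. That pretumor call ended without any 1 of GCP 2, GCP 3, GCP 4, pretumor 1, 2, 4 and 5 or tumor 4, and with the GCP pairs averaged (adjusted p = 0.234). Ncam1, the neural cell adhesion molecule, rose 1.79-fold in pretumor against GCP, from 11.37 ± 0.19 to 12.21 ± 0.12 (adjusted p = 0.0234), and was at 11.66 ± 0.43 in tumor samples. Its call ended without any 1 of GCP 2, GCP 3, GCP 4, pretumor 1 or pretumor 4, and with the GCP pairs averaged (adjusted p = 0.159). Itga6, a laminin-binding integrin chain, was in the low band throughout and was called lower in pretumor (-0.71, adjusted p = 0.0259) and in tumor samples (-0.84, adjusted p = 0.0102), the first ending without GCP 2 or any 1 of pretumor 1, 2, 3 and 5.

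Apbb1ip (102710_at), the Rap1 adaptor of integrin activation, was at 5.78, 7.14, 6.52 and 6.47 in GCP samples. In pretumor samples it was at 2.93, 3.13, 3.53, 3.29 and 3.29, and in tumor samples at 3.46, 3.54, 3.46, 3.15 and 2.90. Every GCP sample was above 16 in intensity and every later sample was below it, and the later groups overlapped. The means were 6.48 ± 0.56, 3.23 ± 0.22 and 3.30 ± 0.27. Apbb1ip fell by 3.25 in pretumor against GCP (95% interval -3.75 to -2.74; adjusted p = 2.2e-05) and by 3.18 in tumor against GCP (-3.69 to -2.67; adjusted p = 1.39e-05), which is at least 5.58-fold in each when the later groups are set at 16. With a floor at 16 each difference was -2.48 (adjusted p = 9.01e-05 and 6e-05). Tumor minus pretumor was 0.07 (-0.41 to 0.55; adjusted p = 0.971). Both calls against GCP were kept in all 23 alternatives, with adjusted p of at most 0.00089 and 0.00138. The list of genes was drawn up with this gene's fall already known, so its place in the list is no independent evidence.

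**Figure D3:**
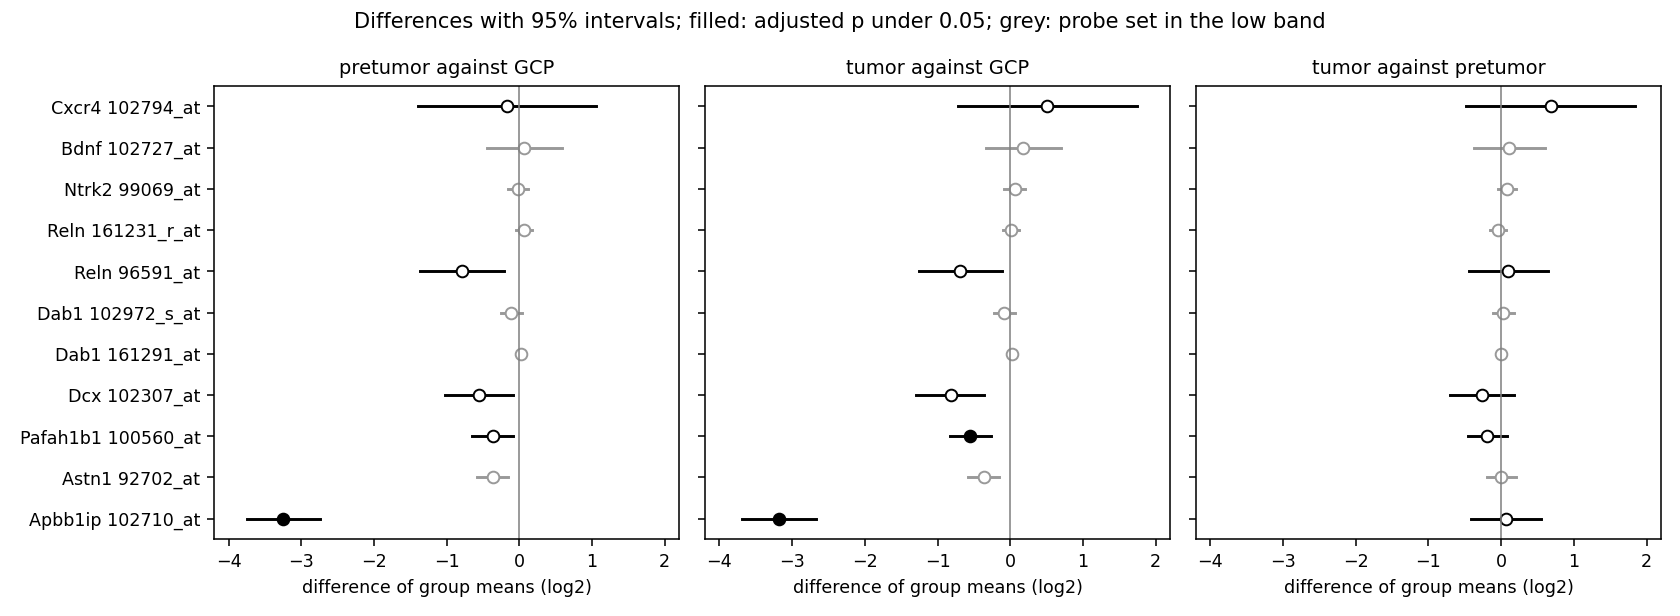
Differences of group means in log2 units (x axis) for the 11 probe sets (y axis), with 95% intervals as lines, in the 3 comparisons. Filled points passed an adjusted p of 0.05 and grey marks probe sets in the low band. Apbb1ip lies at -3.25 and -3.18 against GCP, Pafah1b1 at -0.55 in tumor against GCP, and no point is filled between the later groups.

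The genes most like Apbb1ip over the 14 arrays were Unc5c, Slc39a8 and Cd93, with root mean square differences of 0.39, 0.41 and 0.48 where the median over 3031 genes was 1.5. Unc5c, a netrin receptor, was at 5.56, 5.59, 5.22 and 5.77 in GCP samples and between 1.95 and 2.62 in the later groups. Slc39a8, a zinc transporter, was at 5.33 ± 0.23, 2.73 ± 0.16 and 2.63 ± 0.13. Cd93, a surface glycoprotein of endothelial and myeloid cells, was at 5.40 ± 0.19, 2.51 ± 0.25 and 2.80 ± 0.84. These 3 genes, like Apbb1ip, stood above the low band in GCP samples alone. They were chosen for closeness to Apbb1ip on these same arrays, so the shared pattern follows from the choice and is no separate evidence. This is a likeness of pattern over arrays that share a table and a set of cell preparations.

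**Figure D4:**
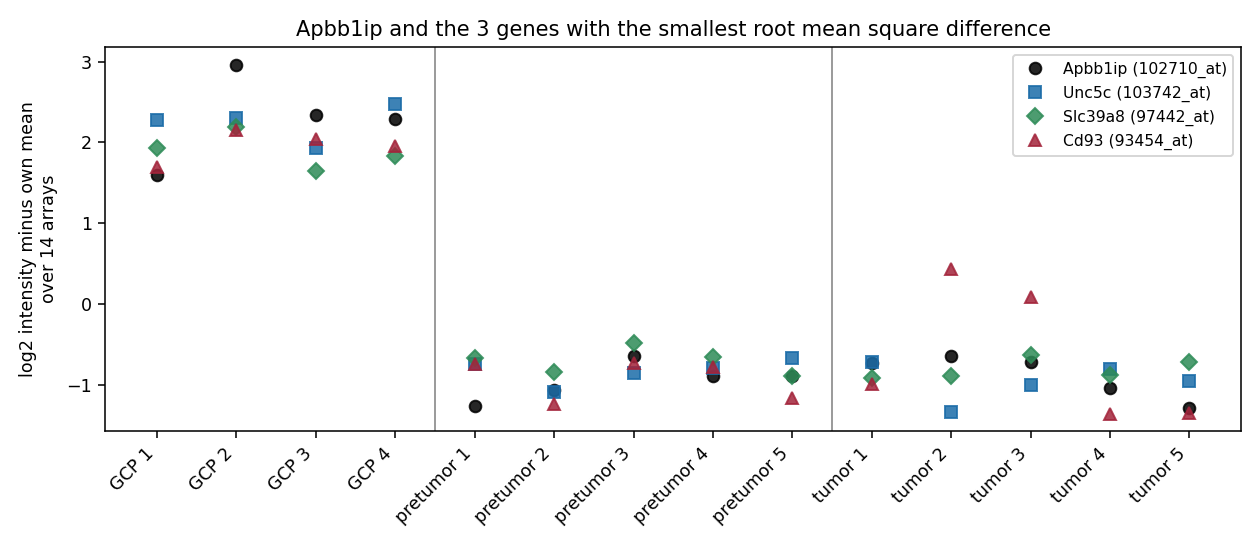
Log2 intensity minus each gene's own mean (y axis) on the 14 arrays (x axis, vertical lines between groups) for Apbb1ip and the 3 genes closest to it. The GCP points of all 4 genes lie above the later points, and Cd93 stands apart in tumor 2 and tumor 3, where it was at 3.87 and 3.53.

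Of the list of Rap1 and integrin activation, 9 of 10 genes were measured and 8 lay above the low band. limma called 0 in pretumor against GCP and 1 in tumor against GCP. This was Tln1, which encodes talin, the protein that Apbb1ip brings to integrins, 1.47-fold lower at 8.36 ± 0.18 against 8.92 ± 0.22 (adjusted p = 0.0448). Its call ended without any 1 of 12 of the 14 arrays and was kept without pretumor 1 or tumor 5. It also ended with the GCP pairs averaged (adjusted p = 0.234). Rap1a, the GTPase that binds Apbb1ip, was at 4.04 ± 0.16, 3.76 ± 0.19 and 3.81 ± 0.32 and was not called; it is named outside the rule, for that role. The median difference of the list was -0.26 in pretumor and -0.06 in tumor against GCP, beside -0.01 and 0.00 over all genes.

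Of the list of granule cell guidance and motility, 15 of 19 genes were measured and 2, Unc5c and Plat, fell in each comparison with GCP. Unc5c fell at least 2.9-fold in each (adjusted p = 1.82e-07 and 1.1e-07), calls kept in all 23 alternatives. Plat, a plasminogen activator that migrating granule cells secrete, fell at least 1.52-fold, from 4.61 ± 0.24 to 3.61 ± 0.30 and 3.72 ± 0.44 (adjusted p = 0.0245 and 0.0423). The pretumor call of Plat ended without any 1 of GCP 1, GCP 2, GCP 4, pretumor 4 or pretumor 5, and its tumor call ended without any 1 of 11 arrays. Both ended with the GCP pairs averaged (adjusted p = 0.164 and 0.233). Over the 8 lists, 72 of 94 genes were measured, 29 of them in the low band. Weak signals were more common over the array, where 30.8% of probe sets had a group mean at or above 16. The shares of all genes given next therefore come from an unlike set. Of the 3714 probe sets with a mean intensity at or above 16 (the filter on low values), 11.2% were called in pretumor and 12.6% in tumor against GCP. In pretumor against GCP 6 of the 72 (8.33%) were called, 1 higher and 5 lower, where 5.24% of all 8251 genes were called, 1.99% higher and 3.25% lower. In tumor against GCP 7 (9.72%) were called, all lower, where 5.62% of all genes were called, 1.7% higher and 3.93% lower, and in tumor against pretumor 1 (1.39%), Stmn1, where 1.09% were called. The count in pretumor against GCP was 1 without GCP 2, 2 without any 1 of pretumor 1, 4 and 5, and 3 without GCP 3, GCP 4 or pretumor 2. That in tumor against GCP was 4 without any 1 of GCP 2, GCP 3, tumor 1 and tumor 4, and 10 without tumor 3.

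**Figure D5:**
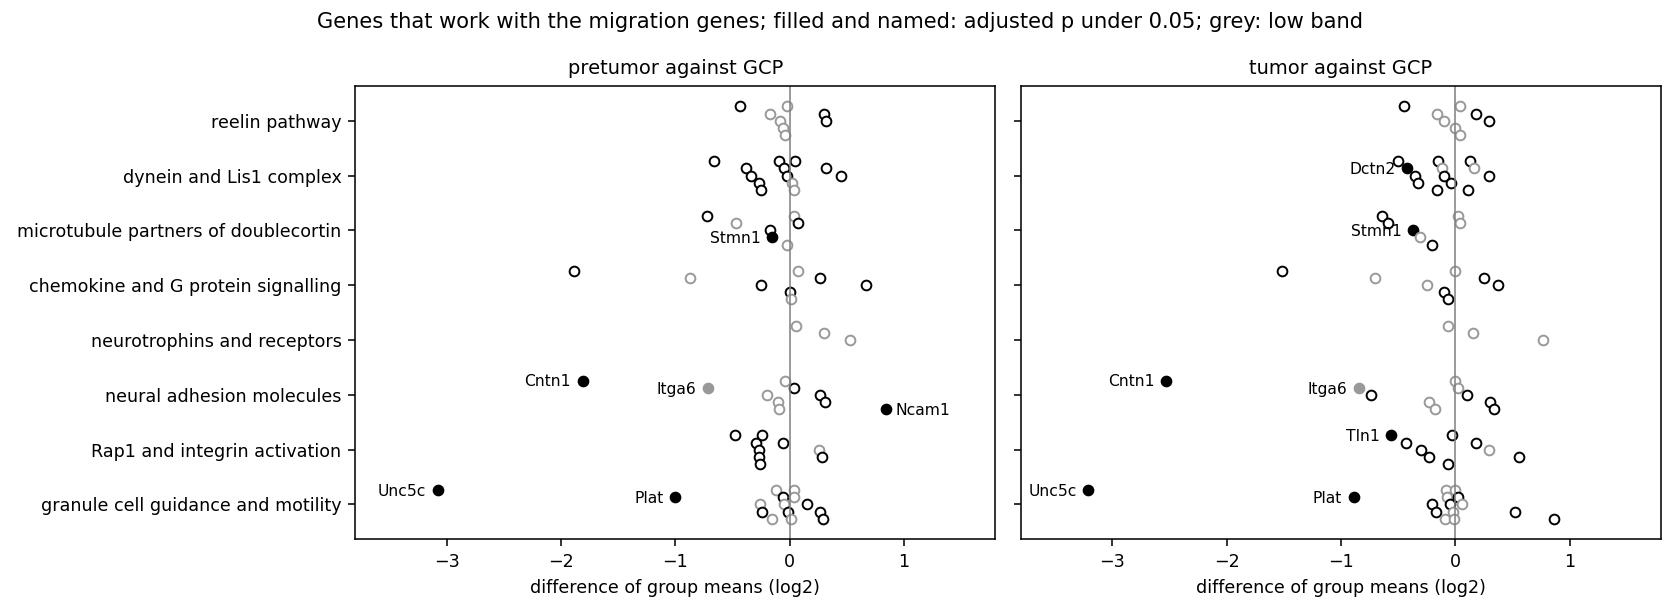
Differences of group means in log2 units (x axis) for the 72 measured genes of the 8 lists (y axis; a gene on more than 1 list is drawn in each), in pretumor against GCP and tumor against GCP. Filled points are named and passed an adjusted p of 0.05, and grey marks the low band. Unc5c lies furthest to the left in each panel, at -3.08 and -3.21, and Ncam1 is the 1 filled point to the right.

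Some markers of other cell types also differed between the groups. In bulk samples, fewer cells of a type and less RNA per cell cannot be told apart. The summed intensity of 11 markers of endothelium and pericytes ran from 111 to 152 in GCP, 65.9 to 89.6 in pretumor and 49.1 to 65.7 in tumor samples, and so was lower in the groups in which Apbb1ip and Cd93 were lower. limma called 4 of the 11 lower in pretumor and 6 lower in tumor against GCP. Of these markers, 9 lay below 16 already in GCP samples, among them Cdh5, Pecam1 and Kdr. Cldn5, the highest of the list in GCP samples, carries most of the fall of the sum, from 5.80 ± 0.27 to 4.39 ± 0.40 and 2.93 ± 0.74 (adjusted p = 0.0377 and 0.000454). Flt1 differed from GCP by 0.38 and -0.15 and Pecam1 by -0.20 and -0.09, without a call. Of 12 markers of microglia and macrophages, 2 were called, both higher in each later group. These were Ctss, a lysosomal protease (7.40 ± 0.75, 9.59 ± 0.26 and 9.13 ± 0.83), and Lyz2, a lysozyme (4.48 ± 0.93, 7.25 ± 0.51 and 8.46 ± 0.62). They carry most of the sum, which ran from 148 to 376 in GCP, 804 to 1356 in pretumor and 629 to 1887 in tumor samples. The other 10 were not called, and Aif1, Itgam, Cx3cr1 and Ptprc lay in the low band in all groups. The 5 markers of lymphocytes and platelets, blood cells known for Apbb1ip, were all in the low band, with sums of 15.3 to 16.6 over all samples. The part of other cell types in the Apbb1ip and Cxcr4 results was not tested.

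The meninges are a source of Cxcl12, and of 8 markers of meninges and matrix 1 was called higher and 2 lower in pretumor, and 2 lower in tumor against GCP. Col3a1, a fibrillar collagen, fell from 4.64 ± 0.25 to 2.00 ± 0.11 and 2.6 ± 0.78 (adjusted p = 0.000722 and 0.00345). Ptgds, a prostaglandin synthase, rose in pretumor samples, from 5.43 ± 0.87 to 8.82 ± 0.28 (adjusted p = 0.00159), and was at 4.56 ± 0.85 in tumor samples. The sum of the 8 ran from 456 to 1018 in GCP, 495 to 707 in pretumor and 54.6 to 445 in tumor samples. Dcn carries most of it in GCP samples and Ptgds most of it in pretumor samples. Dcn was at 8.92 ± 0.50, 6.52 ± 0.45 and 6.01 ± 1.88 and was not called (adjusted p = 0.121 and 0.0573). Lum differed from GCP by -2.14 and -1.18 and was not called. Col1a2 was called lower in each later group, within the low band, while Aldh1a2 differed by 0.76 in tumor samples without a call. Of 9 oligodendrocyte markers, 3 were called higher in pretumor and 1 lower in tumor against GCP, with sums of 139 to 245, 249 to 728 and 82.1 to 163. Of 3 red blood cell markers, 2 were called lower in tumor against GCP, and the sums were 1919 to 4371, 743 to 3414 and 12.9 to 387. Their part in the Cxcl12 values was not tested.

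Of 8 granule precursor markers measured, 2 were called, both lower, in each later group. Neurod1, a factor of differentiating granule cells, fell from 12.83 ± 0.09 in GCP to 11.45 ± 0.40 in pretumor and 11.58 ± 0.46 in tumor samples (adjusted p = 0.00707 and 0.0109), and Pax6, a factor of the same lineage, from 10.54 ± 0.21 to 8.80 ± 0.75 and 8.31 ± 0.33 (adjusted p = 0.0108 and 0.00214). The other 6 were not called; Zic2 differed by -0.21 and Mycn by 0.75 in pretumor against GCP. The sum of the 8 was 14461 to 16928 in GCP, 8066 to 11477 in pretumor and 8560 to 12604 in tumor samples. Neurod1 carries most of the fall of this sum, while Zic1, the other large part of it, differed from GCP by -0.15 and -0.10 without a call. Of 6 markers of postmitotic granule neurons, 2 were called lower in each later group, and the sums were 71.7 to 175 in GCP, 25.8 to 30.8 in pretumor and 25.5 to 29.2 in tumor samples. Kcnd2 alone carries most of that fall, from 6.27 ± 0.83 to 1.76 ± 0.54 and 1.30 ± 0.00 (adjusted p = 3.2e-05 and 1.21e-05). The other 5 lay in the low band already in GCP samples, the second called gene, Cbln1, among them. Grin2c differed by -0.07 and 0.05. Of 5 markers of inhibitory interneurons 2 were called lower in each, among them Gad1 (adjusted p = 0.0048 and 0.000281), while Pvalb differed by 0.34 and 0.73 and was not called. Of 3 markers of Cajal-Retzius or unipolar brush cells, Eomes was called lower in each (adjusted p = 0.000872 and 7.9e-05), while Lhx1 differed by 1.01 and 0.35 and was not called. Of 9 markers of astrocytes and Bergmann glia, 1 was called higher and 1 lower in pretumor, and 5 lower in tumor against GCP. The lower one, Fabp7, which makes up most of that list's sum in GCP samples, fell from 13.24 ± 0.22 to 9.78 ± 0.40 and 9.40 ± 0.85 (adjusted p = 0.00039 and 0.000108). The higher one, the glycolytic enzyme gene Aldoc, rose by 1.23 in pretumor samples within the low band (adjusted p = 0.00138). In tumor samples Aldoc was among the 5 called lower (-0.69, adjusted p = 0.0327). Aqp4 and Gdf10 were also among these 5, at -5.28 and -3.63 (adjusted p = 0.00206 and 0.00808), and neither was called in pretumor against GCP. The markers named here beyond the highest of each list were chosen after their values were seen. The part of these cells in the Dcx and Reln values was not tested.

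Measures of RNA quality differed between arrays as well. The log2 ratio of 3′ to 5′ Gapdh signal was 0.46 for GCP 1, 0.56 for GCP 2 and -0.02 for both GCP 3 and GCP 4. In pretumor samples 1 to 5 it was 0.79, 1.08, 0.01, 0.85 and 0.19, and in tumor samples it ran from 0.15 to 0.42. Pretumor 1, 2 and 4, with the high ratios, gave the 3 lowest pretumor values of Cxcr4 (5.94, 6.33 and 6.23). Pretumor 1 and 2 gave the lowest pretumor values of Dcx and of Reln, but pretumor 4 gave the highest of Dcx (10.79) and was next to the highest for Reln (10.69). GCP 1 and GCP 2 were likewise below GCP 3 and GCP 4 for Cxcr4, while Dcx and Reln in GCP samples did not follow the ratio. The same ratio for actin ran from 3.93 to 4.87 and was highest in pretumor 2 (4.87) and tumor 2 (4.85). Those arrays gave the lowest Reln value of their groups (9.58 and 10.06), and tumor 2 the lowest Dcx value (9.56). They also gave the lowest Pafah1b1 value of their groups (6.61 and 6.43). For Apbb1ip, tumor 2 gave the highest tumor value (3.54), and pretumor 2 was not the lowest of its group. The part of RNA quality in the differences was not tested.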

How the data were processed

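RNA of 14 samples from dissociated mouse cerebellum was measured on 1-colour expression arrays, 1 per sample. The authors deposited a table of 12488 probe sets whose intensity values are linear; the summarisation and normalization behind them are not given in the labels. Array medians lay within 0.0939 log2 units, so no further normalization was applied. These medians lie in the low band. Centring each array on its median over the probe sets with a mean intensity at or above 16 is therefore among the alternatives, and it moved some calls.

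The 66 control probe sets were left out, and a floor of 2.46, the 10th percentile of the remaining values, was set before taking log2. limma 3.58.1 in R 4.3.3 fitted 3 group means to each of 12422 probe sets, with 11 residual degrees of freedom and two-sided p-values adjusted by the Benjamini-Hochberg method over all probe sets. The fit was tested on simulated data. Symbols came from the array's platform annotation: 10833 probe sets had 1 symbol, 396 several and 1193 none. All 10 gene names were in the RefSeq gene table of GRCm38.p6. A gene on a list is represented by its probe set with the highest mean. A fold against a mean below 16 is a lower bound, set at 16. Tables were made with Python 3.11.15 and pandas 2.3.3.

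The members and lists were chosen with earlier results of these data known. The rule for named genes took all members. From each list it took up to 3 called genes with the largest change, or the highest gene where none was called. It took the 3 genes most like each called member, leading cell type markers and Ptch1; other names are stated as such. The alternatives were a floor at 16, a pseudocount of 16, quantile normalization, median centring, a filter on low values, trended and robust moderation, the compared groups alone, replicate numbers as a block, GCP pairs averaged, and leaving out each array. Precision is limited by the number of arrays.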

Additional observations from a re-analysis of the deposited data

Results flagged for a closer look

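Of 33 combinations of probe set and group, 4 held a sample that stood apart by Dixon's test, where chance gives about 1 in 20. Dcx (102307_at) in tumor 2 was at 9.56, with the other tumor samples between 10.34 and 10.56. Reln (96591_at) in tumor 1 was at 11.09, with the others between 10.06 and 10.31. Ntrk2 (99069_at) in tumor 2 was at 1.77, with the others between 1.57 and 1.62, all in the low band. Dab1 (161291_at) in GCP 3 was at 1.34, with the other GCP samples at the floor of 1.30; since those are tied at the floor, any value above it would stand apart, and this one says nothing about the sample. The Cxcr4 value of tumor 5 did not stand apart by this test.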

How the results depend on the processing

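Both Apbb1ip calls kept their direction and their side of the threshold in all 23 alternatives; the Pafah1b1 call was kept in 11 and the Dcx difference in tumor against GCP passed in 6. Over all probe sets, calls numbered 541 (pretumor against GCP), 571 (tumor against GCP) and 124 (between the later groups). They were 194, 232 and 32 with a floor at 16, 168, 198 and 69 with GCP pairs averaged, and 331 and 338 in the first 2 comparisons without GCP 4. In tumor against GCP they were 335 with the compared groups alone. In tumor against pretumor they were 50 with the compared groups alone, 76 with the replicate block, 72 without pretumor 1, and 70 without pretumor 2 or tumor 4. The number of member probe sets called in pretumor against GCP (1) was 2 with median centring and 1 to 2 with arrays left out in turn, 2 without pretumor 5. In tumor against GCP (2) it was 4 with median centring and 1 with a floor at 16, the compared groups alone, the replicate block or GCP pairs averaged, and 1 to 4 with arrays left out, 4 without pretumor 1. In tumor against pretumor it was 0 in each of the 23 alternatives. The number of pathway list genes called in pretumor against GCP (6) was 2 with a floor at 16, the replicate block or GCP pairs averaged, and 1 to 8 with arrays left out. In tumor against GCP (7) it was 4 with a floor at 16, 3 with the compared groups alone or GCP pairs averaged, and 4 to 10 with arrays left out. In tumor against pretumor (1) it was 0 with median centring, the filter on low values, trended and robust moderation or the compared groups alone. The cause of these moves was not tested. Differences that changed sign were all uncalled: Cxcr4 in pretumor against GCP was 0.05 with the replicate block, Reln in tumor against pretumor -0.08 without pretumor 2 or tumor 1 (-0.08 to 0.22 with arrays left out in turn), and Apbb1ip in tumor against pretumor -0.01 without pretumor 1 (-0.01 to 0.17). Of 13 same-numbered pairs across groups, 5 had correlated deviations over 0.1 (range -0.35 to 0.58). GCP with pretumor stood at 0.36, 0.32 and 0.58 for numbers 1 to 3 and at -0.28 for number 4. Pairs with different numbers were not set beside these, so whether the replicate numbers pair the samples was not tested. With the block the Pafah1b1 difference in tumor against GCP was not called (adjusted p = 0.0577). Values in the low band lie close to background, so differences there are uncertain whatever the setting.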
